A study of Mus musculus with 19 samples.

Results

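The RNA levels of 10 genes of the TGF-beta ligand system were examined in primary sarcomas of mice. They are the ligands *Tgfb1*, *Tgfb2* and *Tgfb3*, the receptors *Tgfbr1*, *Tgfbr2* and *Tgfbr3*, and the latency proteins *Ltbp1*, *Ltbp2*, *Ltbp3* and *Ltbp4*. They were taken by symbol from a table of 48795 genes, and 10 of 10 were found. Bulk RNA sequencing covered 19 untreated p53/MCA sarcomas, 11 from mice labelled Rag2-/- and 8 from littermates labelled Rag2+/-, each library being 1 tumor. In mice of both labels, aged 6 to 10 weeks, the gastrocnemius received an adenovirus, Adeno-sgp53-Cas9, that delivers Cas9 with a guide RNA against *Trp53*, and then 300 µg of the carcinogen 3-methylcholanthrene (MCA). Tumors were collected at about 70 to 150 mm3. Rag2-/- mice cannot rearrange antigen receptor genes and so lack mature T and B cells, while their macrophages, neutrophils and other innate cells remain. The comparison of the labels asks what growth without lymphocytes does to the RNA of the tumor.

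TGF-beta is secreted bound to its own propeptide, and this latent complex is tied to the extracellular matrix by latent TGF-beta binding proteins, which the *Ltbp* genes encode. Integrins or proteases free the ligand, which then binds the type II receptor (*Tgfbr2*), and this recruits and phosphorylates the type I receptor (*Tgfbr1*), which signals through SMAD proteins. The type III receptor, betaglycan (*Tgfbr3*), presents ligand to the type II receptor and matters most for TGF-beta 2. In tumors the pathway is known for driving fibroblast activation and matrix deposition and for restraining T cells. Not every latency protein has the same role, since LTBP-2 does not bind latent TGF-beta and is known mainly as a partner of fibrillin microfibrils.

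Values are the authors' upper-quartile normalized FPKM, fragments scaled to gene length and library size, with 0.1 added and the log2 taken. They are per length, so that levels can be set side by side between genes. Libraries held an estimated 24.8 to 33.8 M fragments, except S41 (labelled Rag2-/-) with 5.20 M. An estimated 79 to 1174 fragments lay on *Tgfb2*, the least covered of the 10 genes, and 3215 to 28107 on *Tgfbr2*, the most covered. *Rag2* itself went against the labels, with a median log2 value of −0.16 in tumors labelled Rag2-/- and −1.13 in those labelled Rag2+/- (exact permutation, two-sided, p = 0.0123). The value sums reads over the whole gene, so it does not tell a deleted part from the rest. The T cell list separated the labels. Its mean log2 value lay between −2.14 and −1.15 in tumors labelled Rag2-/- and between 0.37 and 2.65 in those labelled Rag2+/-, and *Cd3e* was at the lowest value of the table in all 11 tumors labelled Rag2-/-. Skeletal muscle genes, from the tissue in which the tumors grew, differed too. All 21 genes of the muscle list were measured, their mean log2 value had a median of 7.08 in tumors labelled Rag2-/- and 9.66 in those labelled Rag2+/- (exact permutation, two-sided, p = 0.0471), and their summed normalized FPKM ran from 430 to 131013 and from 2301 to 203729. All 12 genes of a mesenchymal list, which sarcoma cells and fibroblasts share, were measured as well, with a list mean of 4.51 or more in every tumor and a summed normalized FPKM of 955 to 2449 in tumors labelled Rag2-/- and 806 to 3228 in those labelled Rag2+/-. Each result below is given on all 19 tumors. The 15 tumors that the study lists for its expression plots leave out S41, S46, S51 and S56.

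*Tgfbr2* RNA was the highest of the 10 and *Tgfb2* RNA the lowest. The mean log2 levels over 19 tumors ran in the order *Tgfbr2* (6.11), *Ltbp4* (5.36), *Tgfb1* (5.21), *Ltbp1* (4.94), *Tgfb3* (4.91), *Ltbp3* (4.86), *Tgfbr3* (4.73), *Ltbp2* (4.65), *Tgfbr1* (3.93) and *Tgfb2* (1.85). Only the ends of this order stood beyond the spread between tumors. *Tgfbr2* exceeded *Ltbp4* by 0.75 ± 0.66 (mean and SD of the difference within tumors, log2), in 15 of 19 tumors, and *Tgfbr1* exceeded *Tgfb2* by 2.09 ± 0.71, in 19 of 19. For the other 7 neighboring pairs the mean difference was smaller than its SD. Among the 12826 genes with a mean log2 value above 0, *Tgfbr2* was higher than 92.9% and *Tgfb2* higher than 22.2%. The genes also differed in how much they varied between tumors. The SD of *Tgfbr1* (0.25, log2) was above that of only 9.78% of the tested genes, and the SD of *Ltbp2* (1.84) was above that of 96.4%.

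**Figure D1:**
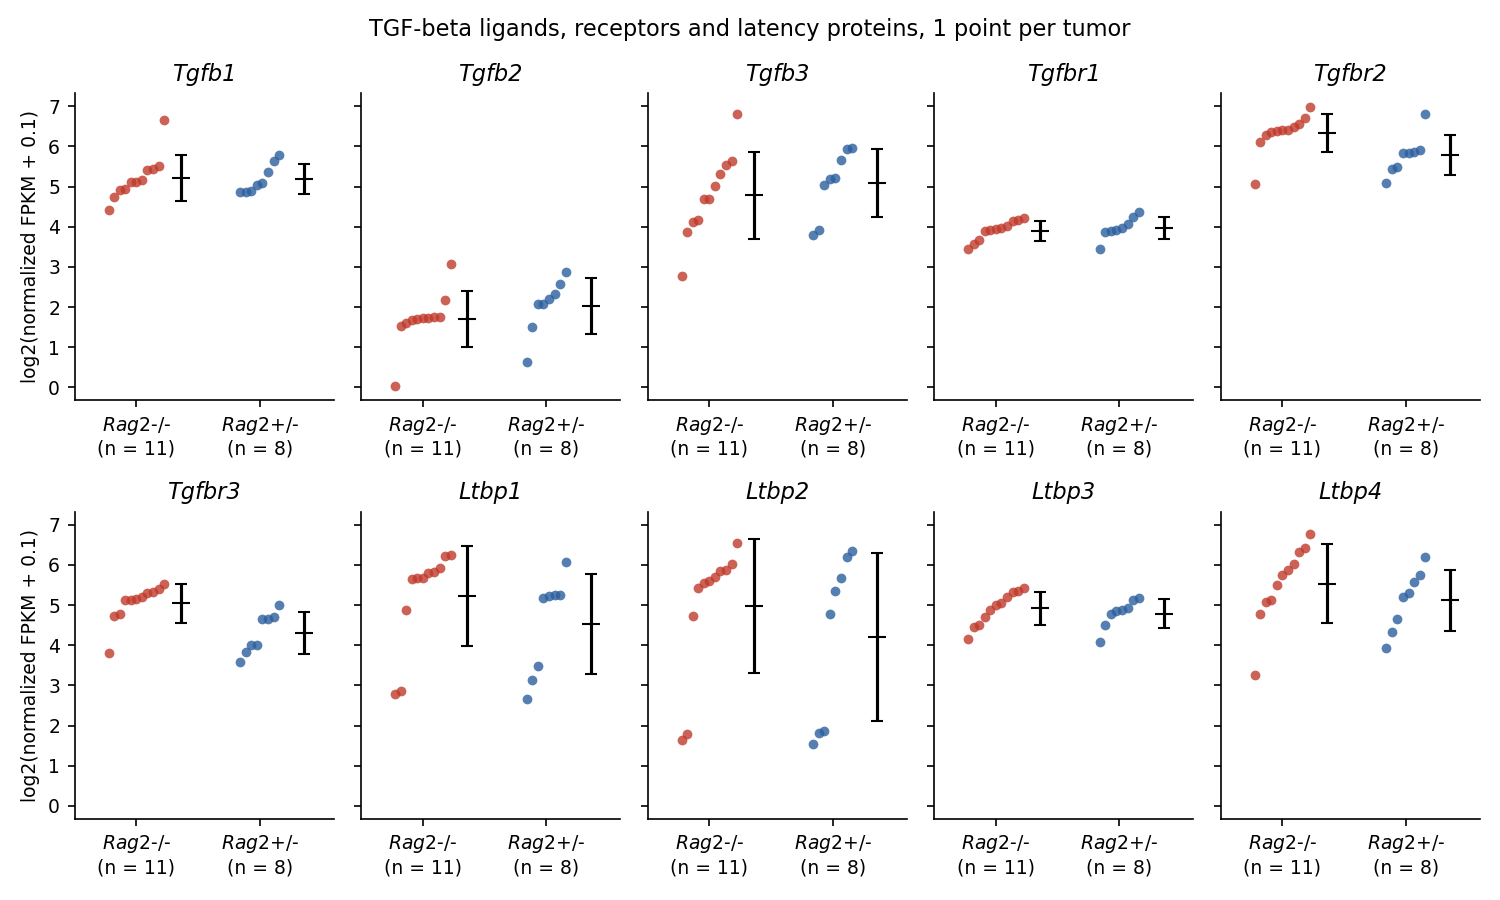
Level of each gene in each tumor, as log2(normalized FPKM + 0.1), for 11 tumors labelled Rag2-/- (red) and 8 labelled Rag2+/- (blue), with the mean and SD at the right of each group. The groups overlap for all 10 genes, *Tgfbr1* spans 0.91 and *Ltbp2* spans 4.99 log2 units, and *Ltbp1* and *Ltbp2* fall into a high and a low set of tumors in both groups.

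The ligand RNA of these sarcomas was mostly *Tgfb1* and *Tgfb3*, and no ligand passed the test between the labels. *Tgfb1*, which many cell types including leukocytes make, had a lowest, median and highest log2 value of 4.42, 5.10 and 6.66 in tumors labelled Rag2-/- and of 4.86, 5.06 and 5.79 in those labelled Rag2+/-. *Tgfb3*, a ligand used in palate and mesenchymal development, was at 2.76, 4.69 and 6.81 and at 3.79, 5.20 and 5.97. The Rag2-/- ranges of both genes enclosed the Rag2+/- ranges. The difference, Rag2-/- minus Rag2+/-, was 0.03 ± 0.22 (SE, log2) for *Tgfb1* and −0.31 ± 0.43 for *Tgfb3* (limma, adjusted p = 0.948 and 0.667). *Tgfb2*, known from heart and eye development, was at 0.03, 1.73 and 3.07 in tumors labelled Rag2-/- and at 0.63, 2.14 and 2.88 in those labelled Rag2+/-, a difference of −0.32 ± 0.31 (limma, adjusted p = 0.536). Without S46 the difference was −0.15 for *Tgfb2* and −0.11 for *Tgfb3*, while *Tgfb2* was at −0.52 without S53 and *Tgfb3* at −0.51 without S48. With the mean of the skeletal muscle list as a covariate *Tgfb3* was at −0.79 (limma, adjusted p = 0.998), and in the 15 tumors that the study lists for its expression plots its direction turned, to 0.15 (limma, adjusted p = 0.822). In bulk tumors, fewer cells of a type and less RNA per cell cannot be told apart.

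The balance of *Tgfb1* and *Tgfb3* moved from tumor to tumor. Of the summed normalized FPKM of the ligands, *Tgfb1* took a median of 54.4% in tumors labelled Rag2-/- (lowest 22.1%, highest 93.0%) and 45.3% in those labelled Rag2+/- (34.7% to 61.9%). *Tgfb3* took 40.5% (6.17% to 72.5%) and 49.2% (29.3% to 62.5%), and *Tgfb2* took between 0.85% and 9.28% of it in any tumor. *Tgfb3* was above *Tgfb1* in 8 of 19 tumors, 3 labelled Rag2-/- and 5 labelled Rag2+/-, and the difference within a tumor ran from −3.89 to 1.71 log2 units. Both extremes were tumors labelled Rag2-/-. S48 had the highest *Tgfb3* (6.81) and the highest *Tgfb2* (3.07) of the 19. S46 had the highest *Tgfb1* (6.66) with the lowest *Tgfb3* (2.76) and the lowest *Tgfb2* (0.03), and it was also the highest tumor in the means of the macrophage list (7.55), the endothelial list (4.75), the adipocyte list (9.29) and, by a small margin over S60 (2.37), the platelet list (2.46). Over the groups, the 12 macrophage genes summed to 2042 to 6778 normalized FPKM in tumors labelled Rag2-/- and 1217 to 4264 in those labelled Rag2+/-, and the 6 adipocyte genes to 7.82 to 6887 and 15.1 to 366. Whether those cells account for its ligand values was not tested.

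**Figure D2:**
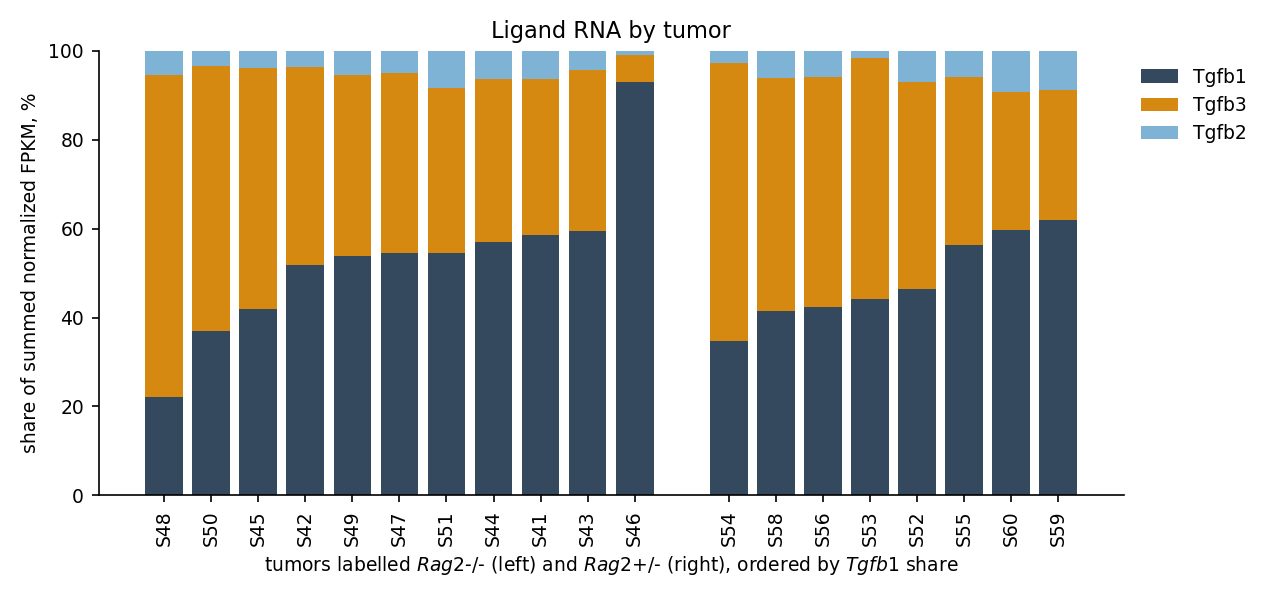
Share of *Tgfb1*, *Tgfb3* and *Tgfb2* in the summed normalized FPKM of the 3 ligands, in percent, 1 bar per tumor, with tumors labelled Rag2-/- at the left and Rag2+/- at the right. *Tgfb1* takes 22.1% in S48 and 93.0% in S46, and *Tgfb2* stays at or under 9.28%.

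For each pair of ligands Pearson's r had opposite signs within the 2 labels, and S46, labelled Rag2-/-, was an extreme tumor for all 3 ligands. For *Tgfb2* and *Tgfb3*, r was 0.82 within tumors labelled Rag2-/- and −0.17 within those labelled Rag2+/-. The same values were −0.32 and 0.60 for *Tgfb1* and *Tgfb3*, and −0.60 and 0.21 for *Tgfb1* and *Tgfb2*, and the differences between labels were not tested. In the 15 tumors that the study lists for its expression plots, which leave out S46, r was positive for each pair. It was 0.40 for *Tgfb1* and *Tgfb3*, 0.19 for *Tgfb1* and *Tgfb2*, and 0.19 for *Tgfb2* and *Tgfb3*. For *Tgfb1* and *Tgfb3*, Pearson's r over 19 tumors was −0.08 (100000 permutations, p = 0.731) and Spearman's rho 0.38 (permutation p = 0.115), and without S46 and S55, the tumors farthest from the *Tgfb1* median, r was 0.56. For *Tgfb1* and *Tgfb2*, r was −0.34 (permutation p = 0.147) and rho −0.01 (permutation p = 0.986), and r was 0.09 without the same tumors. For *Tgfb2* and *Tgfb3*, r was 0.49 (permutation p = 0.0343) and rho 0.17 (permutation p = 0.476), with an adjusted p of 0.893 over the correlations of *Tgfb2* with all 12825 other tested genes, and without S46 and S48 r was −0.05, so that the relation rests on those tumors. All 45 pairs of the 10 genes were computed. Each ligand also had its own nearest genes among those tested. *Tgfb1* was closest to *Gna12*, a G protein subunit (r = 0.90, and 0.82 without S46), to *Cd93*, a surface glycoprotein of endothelial and myeloid cells (0.89 and 0.77), and to *Ehd2*, a protein of caveolae (0.87 and 0.73). *Tgfb3* was closest to *Minpp1*, an inositol polyphosphate phosphatase (0.90 and 0.87), to *Pthlh*, the parathyroid hormone related protein (0.88 and 0.84), and to *Col7a1*, a collagen of anchoring fibrils (0.84 and 0.78). The nearest to *Tgfb2* were lower, at 0.77 for *Insyn1* and *Cdk2ap1* and 0.75 for *Gm42427*, and 0.59, 0.67 and 0.67 without S46. These values describe 19 tumors that share a platform and a tissue, and they were picked as the highest of all tested genes.

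Among the receptors, the type II receptor and betaglycan had higher levels in tumors labelled Rag2-/- before adjustment and not after it, and the type I receptor did not pass at all. *Tgfbr3* had a lowest, median and highest log2 value of 3.80, 5.14 and 5.52 in tumors labelled Rag2-/- and of 3.58, 4.33 and 5.004 in those labelled Rag2+/-. The ranges overlapped, and the median of the Rag2-/- tumors lay above the highest Rag2+/- tumor. The difference was 0.74 ± 0.22 (SE, log2), a fold of 1.67, with p = 0.00347 and an adjusted p of 0.301 over all tested genes (limma). The two-sided exact permutation test, over the 75582 ways to choose 11 of 19 tumors, gave p = 0.00593. *Tgfbr2* was at 5.07, 6.41 and 6.97 in tumors labelled Rag2-/- and at 5.08, 5.84 and 6.82 in those labelled Rag2+/-. Its difference was 0.55 ± 0.22, a fold of 1.47, with p = 0.0216 and the same adjusted p (limma), and the exact permutation test gave p = 0.0279. *Tgfbr1* was at 3.45, 3.95 and 4.22 and at 3.46, 3.94 and 4.36, and its difference was −0.07 ± 0.13 (limma, adjusted p = 0.758).

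So 0 of the 10 genes passed the adjusted threshold of 0.05, which 0.0312% of all tested genes did (4 of 12826). At an unadjusted p under 0.05, 2 of the 10 passed, both higher in tumors labelled Rag2-/-, where 16.3% of all tested genes passed and 6.74% passed in that direction. The muscle list bears on these values. With its mean as a covariate, the difference of *Tgfbr3* was 0.41 (p = 0.0456) and that of *Tgfbr2* 0.21 (p = 0.271), with an adjusted p of 0.998 for both (limma). Without S56, a muscle-rich tumor labelled Rag2+/-, the difference of *Tgfbr2* was 0.45 (p = 0.0538, limma). The study used male and female mice, and *Xist* is an RNA of female cells. With *Xist* as a covariate the difference of *Tgfbr3* was 0.58 (p = 0.00746) and that of *Tgfbr2* 0.41 (p = 0.0560), with an adjusted p of 0.617 for both (limma).

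**Figure D3:**
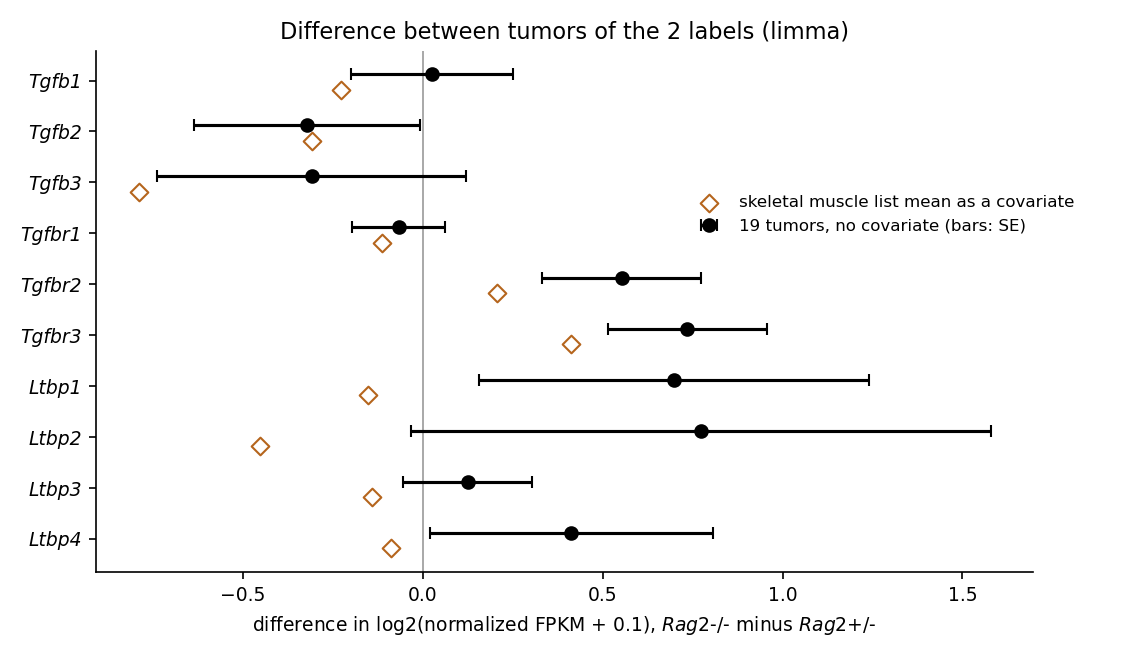
Difference in log2(normalized FPKM + 0.1) between tumors labelled Rag2-/- and Rag2+/- for each gene, with its SE (black), and the same with the mean of the skeletal muscle list as a covariate (open diamonds). *Tgfbr3* (0.74) and *Tgfbr2* (0.55) are higher in Rag2-/- tumors by more than 2 SE without the covariate, and the values of *Ltbp1*, *Ltbp2*, *Ltbp3*, *Ltbp4* and *Tgfb1* lie below 0 with it.

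*Tgfbr2* and *Tgfbr3* tracked each other closely. Pearson's r was 0.93 and Spearman's rho 0.90 over 19 tumors (permutation p = 1e-05, the smallest that 100000 permutations give, and 2e-05), with an adjusted p of 0.000521 over the correlations of *Tgfbr2* with all other tested genes. *Tgfbr3* was closer to *Tgfbr2* than 99.98% of them. The value was 0.94 within tumors labelled Rag2-/-, 0.86 within those labelled Rag2+/- and 0.89 without S51 and S56, the tumors farthest from the *Tgfbr2* median. In the 14 tumors that are not low in *Ltbp1* and *Ltbp2*, described next, r was 0.80 (permutation p = 0.00036, adjusted p = 0.212).

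*Ltbp1* and *Ltbp2* were the most variable of the 10 and fell into separate sets of tumors. *Ltbp1*, a carrier of latent TGF-beta, had log2 values of 2.78 and 2.87 in S51 and S46 (labelled Rag2-/-) and of 3.14, 2.67 and 3.49 in S56, S59 and S60 (labelled Rag2+/-). In the same 5 tumors *Ltbp2* was at 1.65 and 1.79 and at 1.83, 1.55 and 1.86. The other 14 tumors lay between 4.89 and 6.24 for *Ltbp1* and between 4.73 and 6.55 for *Ltbp2*, so that a gap of over 1 log2 unit parted the sets for both genes and no tumor was low in only one of them. For *Tgfb1*, *Tgfb2*, *Tgfb3*, *Tgfbr1*, *Tgfbr2*, *Tgfbr3*, *Ltbp3* and *Ltbp4* the ranges of these sets overlapped. For *Tgfbr2* and *Tgfbr3* the overlap came from S46 alone (6.28 and 4.78). S51, S56, S59 and S60 were the 4 lowest of the 19 in both, at 5.07, 5.08, 5.49 and 5.44 for *Tgfbr2* and 3.80, 3.58, 3.83 and 4.002 for *Tgfbr3*, and the other 14 began at 5.83 and 4.006. Within the 14 tumors, r of *Ltbp1* and *Ltbp2* was 0.53 (permutation p = 0.0509) and rho 0.43 (permutation p = 0.128), with an adjusted p of 0.157 over the correlations of *Ltbp1*, and without S47 and S43, the farthest from the *Ltbp1* median, it was 0.36. The 5 tumors are too few for a value of their own. Of them, S46, S51 and S56 are not among the 15 tumors that the study lists for its expression plots, while S59 and S60 are. The study's methods remove samples that failed quality checks or had too little RNA or DNA. Why these tumors were left out is not stated.

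The stretches before the annotated starts of *Ltbp1* and *Ltbp2* are shown since both genes were low in the same 5 tumors. *Ltbp1* (GRCm38 chr17:75005568-75392512, plus strand) has 2 starts in RefSeq, and *Ltbp2* (GRCm38 chr12:84783212-84876532, minus strand) has 1. The sequences are from RefSeq on GRCm38.p6, 5′ to 3′ on the strand of the gene, and cover chr17:75005279-75005528, chr17:75178531-75178780 and chr12:84876533-84876741, the last without the 41 bases nearest to the RefSeq start, which lie in an exon of GENCODE vM21. Capitals mark CAGAC, the short SMAD-binding element, and GGGCGG, the GC box, on either strand.
Ltbp1, first start: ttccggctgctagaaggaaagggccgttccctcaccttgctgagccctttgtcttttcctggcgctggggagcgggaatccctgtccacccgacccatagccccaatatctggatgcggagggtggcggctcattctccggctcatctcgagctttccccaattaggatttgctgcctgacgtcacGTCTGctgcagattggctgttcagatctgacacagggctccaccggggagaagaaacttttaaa
Ltbp1, second start: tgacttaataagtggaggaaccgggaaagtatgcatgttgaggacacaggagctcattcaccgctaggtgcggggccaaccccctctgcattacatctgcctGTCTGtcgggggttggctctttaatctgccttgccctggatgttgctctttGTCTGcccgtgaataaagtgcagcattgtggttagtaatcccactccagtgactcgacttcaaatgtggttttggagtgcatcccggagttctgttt
Ltbp2: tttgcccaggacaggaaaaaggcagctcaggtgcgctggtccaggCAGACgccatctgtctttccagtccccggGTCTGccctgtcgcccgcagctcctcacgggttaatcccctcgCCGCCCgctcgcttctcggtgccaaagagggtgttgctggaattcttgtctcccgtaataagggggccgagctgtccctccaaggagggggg
CAGAC stood 1 time before the first *Ltbp1* start, 2 times before the second and 2 times before *Ltbp2*, and 42.2% of all 32851 windows of 250 bases in the table hold it. GGGCGG stood 2 times before *Ltbp2*, once in the bases not shown, and in 32.7% of all windows. TGANTCA (the AP-1 site, in 6.75% of windows), TATAAA (the TATA box, 12.4%) and GGAATG (the TEAD site, 12.6%) were in none of these windows. Of the 12 windows that the table holds for 8 of the 10 genes, 7 held CAGAC and 6 held GGGCGG. These are descriptions of letters, not of bound sites.

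No latency protein passed the test between the labels. The medians were 5.68 and 5.20 for *Ltbp1* and 5.60 and 5.08 for *Ltbp2*, in tumors labelled Rag2-/- and Rag2+/- respectively. The differences were 0.70 ± 0.54 (SE, log2) and 0.77 ± 0.81 (limma, adjusted p = 0.451 and 0.565), and both genes had low tumors under both labels. Without S59 the differences were 0.43 and 0.39, and without S51 they were 0.94 and 1.11. *Ltbp3*, a carrier of latent TGF-beta known from bone and teeth, had the narrowest range of the latency proteins, with a lowest, median and highest log2 value of 4.16, 5.01 and 5.43 in tumors labelled Rag2-/- and of 4.09, 4.86 and 5.17 in those labelled Rag2+/-. Its difference was 0.12 ± 0.18 (limma, adjusted p = 0.679). *Ltbp4*, which also organizes elastic fibers, was at 3.26, 5.76 and 6.78 and at 3.93, 5.26 and 6.21, a difference of 0.41 ± 0.39 (limma, adjusted p = 0.525). Without S59 the differences of *Ltbp3* and *Ltbp4* were 0.025 and 0.24, and without S51 they were 0.20 and 0.64. In the 15 tumors that the study lists for its expression plots, *Ltbp1* was at 1.01 and *Ltbp4* at 0.81, with unadjusted p = 0.0267 and 0.0308 (limma, adjusted p = 0.218 for both). With the muscle list as a covariate all 4 differences turned, to −0.15 for *Ltbp1*, −0.45 for *Ltbp2*, −0.14 for *Ltbp3* and −0.088 for *Ltbp4* (limma, adjusted p = 0.998 for each), and with *Xist* as a covariate *Ltbp1* was at 0.26 and *Ltbp2* at 0.11. *Ltbp3* and *Ltbp4* varied together, with r = 0.78 and rho = 0.73 (permutation p = 7e-05 and 0.00053, adjusted p = 0.0169 over the correlations of *Ltbp3*), and r was 0.60 without S59 and S51, the farthest from the *Ltbp3* median. *Ltbp2* shares 764 of its 8184 exonic bases with *D030025P21Rik* on the opposite strand. Since the counting is not stated to use strand, reads of these partners cannot be told apart. The r of *Ltbp2* and *D030025P21Rik*, a gene chosen after its values were seen, was 0.98.

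The 5 tumors low in *Ltbp1* and *Ltbp2* were also the 5 lowest in the mesenchymal list, with list means between 4.51 and 5.84 against 6.05 to 6.86 in the other 14. Of the 5, S51, S56, S59 and S60 were rich in muscle genes (list mean 10.91 to 12.06), and S46 was not (6.24). S52, labelled Rag2+/-, had a muscle mean of 10.93 with *Ltbp1* at 5.17 and *Ltbp2* at 4.79. So 1 low tumor was not rich in muscle genes and 1 tumor rich in muscle genes was not low. The mean of the adipocyte list was 9.29 in S46, 6.47 in S51, 4.82 in S60, 4.71 in S59 and 1.09 in S56, and among the other 14 it was 6.64 in S47 and at most 3.39 in the rest. The part of any of these cell types in the low values was not tested. The sample titles also hold a number for each tumor, whose meaning is not stated. S56 and S46 had the lowest of these numbers, and S51, S59 and S60 had the highest.

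**Figure D4:**
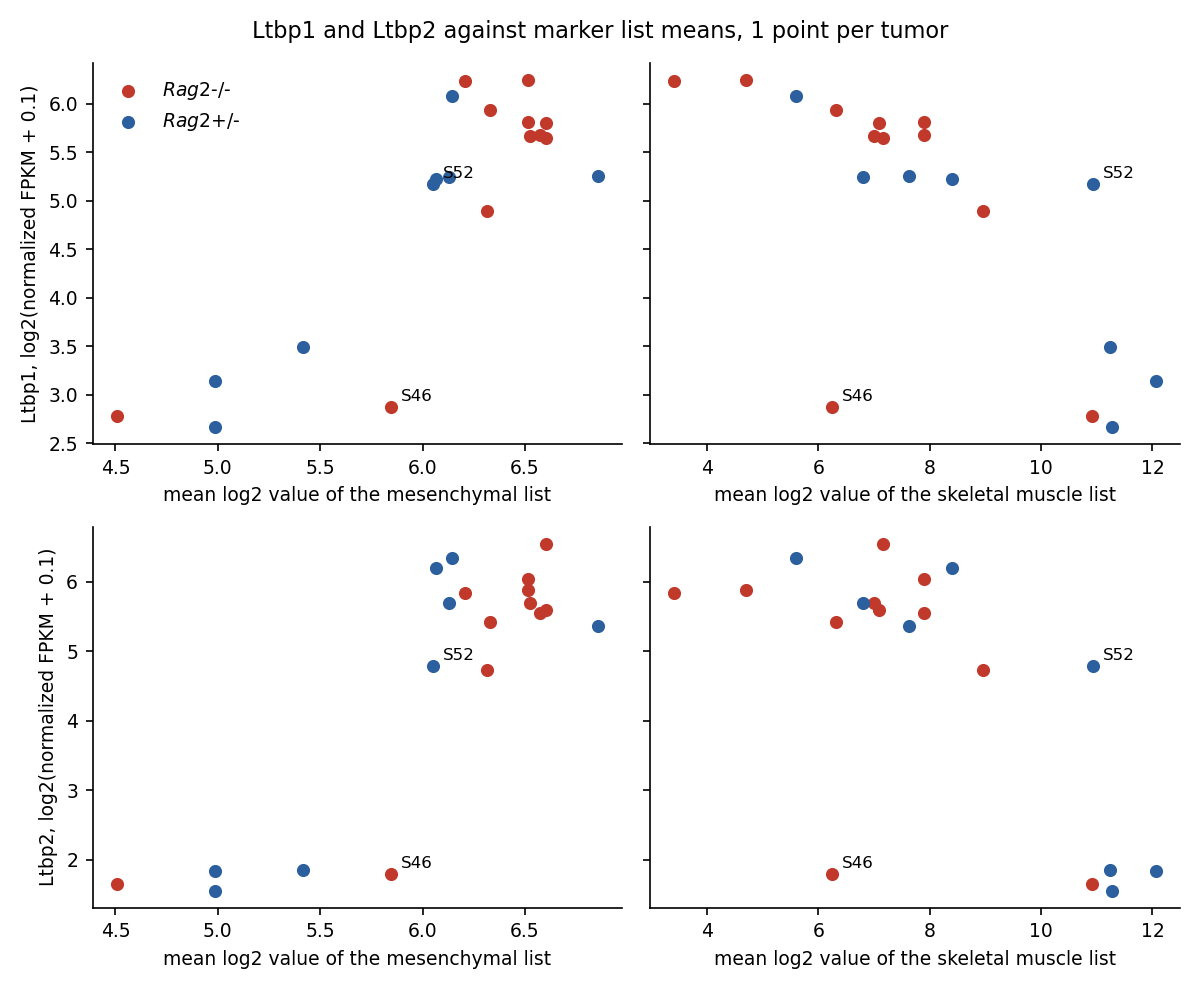
*Ltbp1* (top) and *Ltbp2* (bottom), as log2(normalized FPKM + 0.1), against the mean log2 value of the mesenchymal list (left) and of the skeletal muscle list (right), 1 point per tumor, red for Rag2-/- and blue for Rag2+/-. The 5 tumors low in both genes have mesenchymal means of 5.84 or less, S46 is low without a high muscle mean, and S52 is not low with a muscle mean of 10.93.

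Slopes on 4 marker lists, fitted to every tested gene with the label in the model, show which of the 10 genes moved with the marker genes of a cell type. A slope is the change in log2 value per log2 unit of a list's mean, and a gene was counted where its adjusted p was under 0.05 (limma). On the skeletal muscle list 8 of the 10 passed, all with negative slopes. Of all tested genes 55.1% passed, and 30.5% passed with a negative slope. The steepest were *Ltbp2* at −0.56 ± 0.15 (SE) and *Ltbp1* at −0.39 ± 0.10, and the least steep that passed were *Ltbp3* at −0.12 ± 0.03 and *Tgfb1* at −0.12 ± 0.05. *Tgfb2* and *Tgfbr1* did not pass. The count depended on the tumors. It was 4 in the 15 tumors that the study lists for its expression plots, where 5792 of all tested genes passed, against 7058 in the 19. It was 2 within tumors labelled Rag2-/- (1601 genes), 4 within those labelled Rag2+/- (6103 genes) and 1 without the 5 tumors low in *Ltbp1* and *Ltbp2* (2812 genes).

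On the mesenchymal list 6 of the 10 passed, all with positive slopes, where 56.6% of all tested genes passed and 30.0% passed with a positive slope. They were the co-receptor and type II receptor and all 4 latency proteins. *Ltbp2* rose by 2.51 ± 0.36 (SE) per unit of the list mean, *Ltbp1* by 1.66 ± 0.25, *Ltbp4* by 1.09 ± 0.21, *Tgfbr3* by 0.69 ± 0.10, *Tgfbr2* by 0.67 ± 0.10 and *Ltbp3* by 0.38 ± 0.12. No ligand passed on this list. Without S51 and S59, the tumors farthest from the list's median, *Ltbp3* and *Ltbp4* no longer passed (0.16 and 0.70, adjusted p = 0.502 and 0.109, limma). Within tumors labelled Rag2+/- alone their adjusted p was 0.0553 and 0.0857, and within those labelled Rag2-/- alone it was 0.156 and 0.00187 (limma). With the muscle list as a further covariate 5 of the 10 passed, and without the 5 low tumors 0 of the 10 did, the slope of *Ltbp2* being 0.13 and that of *Ltbp1* −0.12 (adjusted p = 0.991 and 0.988, limma). In those 14 tumors, chosen after seeing the gap and so with most of the range of both genes taken away, 0 of all tested genes passed, and 860 genes and 1 of the 10, *Tgfbr2*, had an unadjusted p under 0.05.

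On the macrophage list only *Tgfb1* passed, with a slope of 0.79 ± 0.17 (limma, adjusted p = 0.00686), where 15.7% of all tested genes passed. The slope was 1.23 within tumors labelled Rag2-/- (adjusted p = 0.0153) and 0.38 within those labelled Rag2+/- (adjusted p = 0.289), and the difference between these was not tested. Without S56 and S46, the lowest and highest tumor in the list, it was 1.05 (p = 0.000335, adjusted p = 0.181, limma), and with the first principal component of the list in place of its mean it was 0.35 (adjusted p = 0.179). On the endothelial list 0 of the 10 passed, where 0.226% of all tested genes passed. *Tgfb1* and *Ltbp1* had an unadjusted p under 0.05 there, with slopes of 0.66 ± 0.21 and −1.21 ± 0.55 (limma, adjusted p = 0.222 and 0.433).

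**Figure D5:**
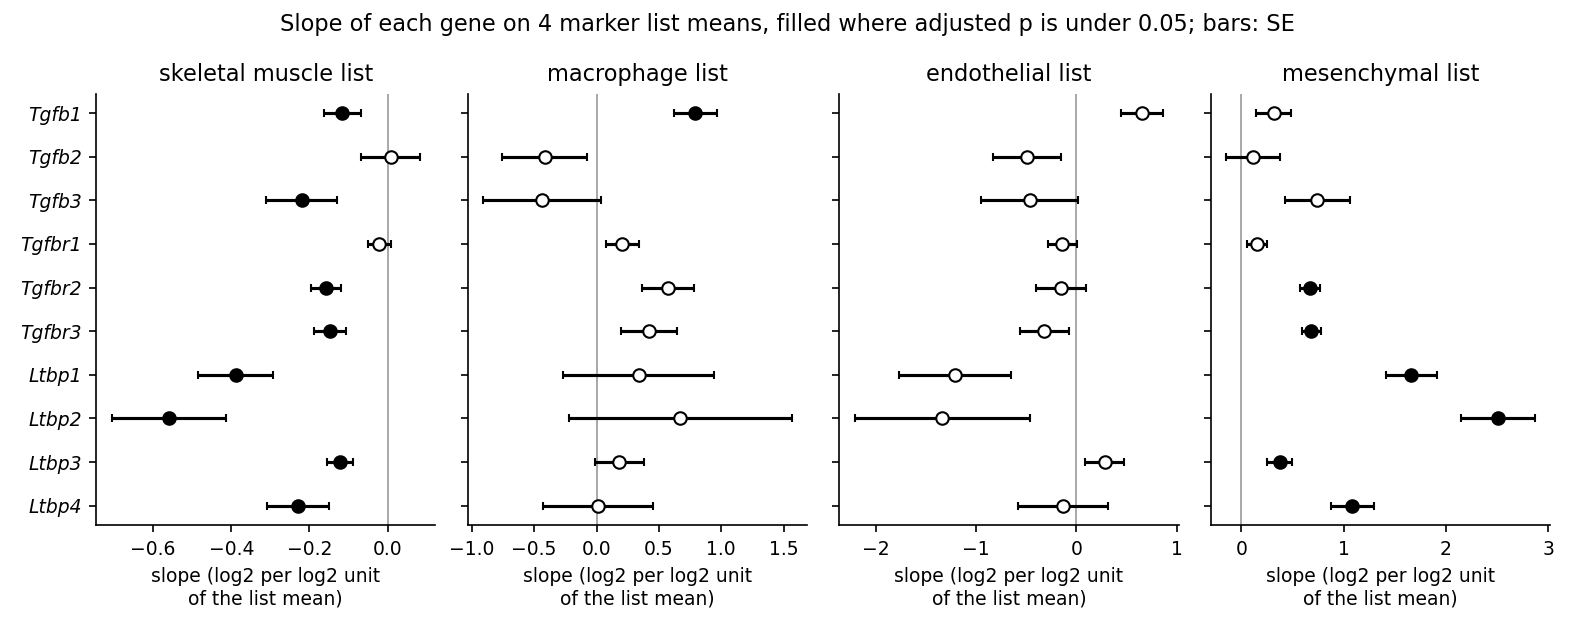
Slope of each gene on the mean of the skeletal muscle, macrophage, endothelial and mesenchymal lists, in log2 units per log2 unit, with its SE, over 19 tumors with the label in the model. Filled points have an adjusted p under 0.05, which 8, 1, 0 and 6 of the 10 genes reach, and the scales differ between panels.

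In 5 lists of other pathway genes, 2 genes had an unadjusted p under 0.05 between the labels, which 16.3% of all tested genes had, and 0 an adjusted one (limma). The 2 became 20 without S51 and 8 in the 15 tumors of the study's expression plots, while the count over all tested genes went from 2091 to 4160 and 2843. Of 17 genes of latency and activation, such as the integrins and proteases that free the ligand, 15 were tested, 0 had an unadjusted p under 0.05, and the median difference was 0.39, against 0.06 over all tested genes. Their lowest p-values were those of the matrix proteases *Mmp14* (0.59 ± 0.31, p = 0.0759) and *Mmp2* (0.57 ± 0.35, p = 0.114) and of *Emilin1*, which holds back TGF-beta processing (0.54 ± 0.32, p = 0.112, limma). The integrin chains *Itgb6* and *Itgb8*, which activate latent TGF-beta with an alpha v partner, were below the level tested in their mean over the 19 tumors. *Itgb6* had a mean of −1.48 (highest 0.25) in tumors labelled Rag2-/- and 0.38 (highest 3.40) in those labelled Rag2+/-. *Itgb8* had means of −0.71 (highest −0.08) and −0.03 (highest 1.05). Of 20 target genes 0 passed, with a median difference of 0.34, and the lowest p-values were those of *Timp1*, *Adam12* and *Tgfbi* (differences 0.52, 0.84 and 0.52, p between 0.114 and 0.157, limma). Of 11 co-receptors and binding proteins 0 passed, with a median of 0.03, and *Bambi*, a decoy receptor, had the lowest p (0.62 ± 0.34, p = 0.0873, limma), followed by *Bgn* and *Vasn* (0.59 and 0.27). Of 14 SMADs and their regulators 1 passed, the SMAD phosphatase *Ppm1a*, at 5.16 ± 0.53 (SD, n = 11) against 5.81 ± 0.88 (SD, n = 8). Its difference was −0.65 ± 0.31 (SE, limma, p = 0.0491, adjusted p = 0.306). *Zfyve9* and *Trim33* were next (−0.55 and 0.27). Of 15 activin, GDF and BMP genes 14 were tested and 1 passed, the activin-like ligand *Gdf11*, at 1.58 ± 0.42 (SD, n = 11) against 2.17 ± 0.38 (SD, n = 8). Its difference was −0.59 ± 0.20 (SE, limma, p = 0.00659, adjusted p = 0.301). *Bmp6* and *Mstn*, the muscle-made myostatin, were next (−0.56 and −1.97). On the mesenchymal list, 19 of the 20 target genes and 12 of the 15 genes of latency and activation had positive slopes with an adjusted p under 0.05 (limma), where 30.0% of all tested genes did. For the co-receptors 6 of 11 were positive and 1 negative, for the SMADs 7 and 3 of 14, and for the activin, GDF and BMP genes 4 and 3 of 14. On the muscle list, where 30.5% of all tested genes had negative slopes, these were 18 of the targets, 10 of latency and activation, 6 of the co-receptors, 8 of the SMADs (4 positive) and 3 of the activin, GDF and BMP genes (2 positive). Without the 5 low tumors 0 of all tested genes passed on the mesenchymal list. The target list and the mesenchymal list both hold collagen genes. So in these slopes the activity of TGF-beta and the amount of mesenchymal cells cannot be told apart.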

How the data were processed

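RNA of 19 primary sarcomas was sequenced in paired-end reads of 150 bases. The authors deposited log2 values of upper-quartile normalized FPKM. The study's methods describe 2 pipelines for RNA, and which made these values is not settled here. One, for neoantigen expression, with which such FPKM values are described, aligned reads to mouse genome B38 with the Omicsoft aligner in Array Studio and counted on Ensembl R86 genes. The other used Trimmomatic 0.36, STAR, HTSeq and mm10, which the submitters' processing notes name too, with a STAR version that differs between these sources. The lowest value, −3.32 in all 19 libraries, shows that 0.1 had been added. The file pairs no identifier with a symbol, and 48349 of 48795 were matched to one. All columns were matched to a tumor (0 unmatched).

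Being normalized, these values were given no count test. limma 3.58.1 (R 4.3.3, trend) was fitted on all 19 tumors to genes whose mean log2 value exceeded 0, with Benjamini-Hochberg adjustment at 0.05, and the fit was tested on simulated data. Slopes leave the genes of the list out. Correlations were adjusted over all tested genes. Depth was estimated from the steps of low values with GENCODE vM21 gene lengths, where 77.0% to 89.5% of values came out whole within 0.05 fragments, and intervals on it were not used. Permutations and summaries were run in Python 3.11.15 (scipy 1.17.1, pandas 2.3.3, numpy 2.4.6).

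The 10 genes, the gene lists and the marker lists were chosen with earlier results of these data known. Named are the 10 genes, the 3 genes of lowest p in each pathway list, the 3 nearest to each ligand, marker list genes and *Rag2*. *Itgb6*, *Itgb8*, *D030025P21Rik* and the covariate *Xist* are named outside this rule, the first 3 after their values were seen. Alternatives covered the tumors, pseudocount, filter, normalization, variance model and covariates. The adipocyte covariate, alone or with muscle, and the settings without the 5 tumors low in *Ltbp1* and *Ltbp2* were chosen after seeing the data. One overlap of a gene with a neighbor is not reported here.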

Additional observations from a re-analysis of the deposited data

How the results depend on the processing

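In all 32 alternatives for the comparison of labels, 0 of the 10 genes and 0 pathway list genes had an adjusted p under 0.05. *Tgfb2* was tested in 31 of them, being below the filter at a mean log2 value of 2. *Tgfbr3* kept its direction and an unadjusted p under 0.05 throughout (0.41 to 0.86), and *Tgfbr2* kept its direction (0.21 to 0.70) but lost that p in 4. No paired analysis was possible because the labels carry no replicate numbers, and numbers given in accession order tie no tumors of the 2 groups together. The numbers in the sample titles are not stated to link tumors either. The counts follow as all genes with an adjusted p under 0.05 (4 as reported), then members of the 10 and pathway list genes at an unadjusted p under 0.05 (2 and 2 as reported), where they moved by over 1.5 times, with all genes at that p in brackets (2091 as reported). In the 15 tumors of the Source Data they were 15, 4 and 8 (2843), with *Tgfb1* at −0.056 and *Tgfb3* at 0.15. There *Tgfb2* was at −0.12, *Tgfbr1* at −0.13, *Ltbp2* at 1.19 and *Ltbp3* at 0.22. With the muscle covariate they were 2, 1 and 4 (534), with *Tgfb1* at −0.23, *Ltbp1* −0.15, *Ltbp2* −0.45, *Ltbp3* −0.14 and *Ltbp4* −0.088. With muscle and adipocyte covariates 1 member passed (481), with *Tgfb1* at −0.38 and *Ltbp3* at −0.14. With *Xist* as a covariate 1 member and 1 list gene passed (964), with *Ltbp1* at 0.26, *Ltbp2* 0.11, *Ltbp4* 0.19 and *Tgfb3* −0.51. With the adipocyte covariate 7 list genes passed (3605), and without the variance trend 1 (2047). Without a filter 34 genes and 4 list genes passed (3003), and above a mean log2 value of 2, 0 genes (limma, 1676 at an unadjusted p under 0.05) and 1 list gene. Leaving out each tumor gave 3 (without S52) to 7 (without S56) genes, 1 (without S56) to 2 members, 1 (without S52 and others) to 20 (without S51) list genes (916 without S56, 1397 without S52, 4160 without S51), and −0.12 (without S46) to 0.11 for *Tgfb1*. Without S56 *Tgfbr1* was at −0.14 and without S58 at −0.011.

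For slopes, the counts moved as follows, all genes first and members second. On the muscle list (7058 and 8) it was 1601 and 2 in Rag2-/- tumors alone, 2812 and 1 without the 5 tumors low in *Ltbp1* and *Ltbp2*, 6103 and 4 in Rag2+/- tumors alone and 5792 and 4 in the 15 tumors. On the macrophage list (2007 and 1) it was 0 and 0 without the 2 tumors farthest from the median and in the 15 tumors (2445 and 669 genes and 2 members each at an unadjusted p under 0.05), 110 genes in Rag2-/- tumors alone, 168 and 0 in Rag2+/- tumors alone, 7240 and 7 with the first principal component, and 5723 and 4 with the adipocyte covariate. On the endothelial list (29 and 0) it was 0 genes without the 2 farthest tumors, in the 15 and in Rag2+/- tumors alone (415, 561 and 250 unadjusted), 405 in Rag2-/- tumors alone, 113 and 1 with the muscle covariate and 2 with the adipocyte covariate. On the mesenchymal list (7255 and 6) it was 4172 genes in the 15 tumors, 4569 in Rag2+/- tumors alone, 3542 with the muscle covariate, and 0 and 0 without the 5 low tumors, with *Ltbp1* at −0.12. The r of *Tgfb2* and *Tgfb3* was −0.051 without the 2 farthest tumors and −0.17 in Rag2+/- tumors alone, and 0.82 in Rag2-/- tumors alone, 0.35 in the 14 and 0.19 in the 15 tumors. That of *Tgfb1* with *Tgfb2* ran from −0.60 (Rag2-/- alone) to 0.29 (the 14), and with *Tgfb3* from −0.32 (Rag2-/- alone) to 0.60 (Rag2+/- alone). The causes were not tested.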
